A study of Mus musculus with 9 samples.

Results

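The mitochondrial respiratory chain and ATP synthase were followed through their genes in the mouse omentum. A gene was a member if its mouse symbol starts with mt-Nd, mt-Co, mt-Cytb, mt-Atp, Nduf, Uqcr, Cox4i, Cox5, Cox6, Cox7, Cox8 or Atp5, or is Sdha, Sdhb, Sdhc or Sdhd, and if it had at least 100 counts summed over all 9 libraries. Of 55359 genes in the count table, 120 carried such a symbol and 100 reached the threshold, 8 of them encoded by mitochondrial DNA and 92 by nuclear DNA. All 100 also passed the filter on low counts, which left 17123 genes for testing. The members were thus chosen by symbol and selected on their summed count, a measured value. Just inside the threshold were mt-Nd3 with 157 counts, Cox6a2 with 166 and Cox8b with 217, and just outside were Ndufab1-ps with 38, Ndufb4c with 29 and mt-Co3 with 23. The 20 symbols below it were 5 mitochondrial genes and 15 nuclear genes, mostly pseudogenes or copies.

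The libraries came from the omenta of C57BL/6 mice, 7 to 10 weeks old. The omentum is an apron of fat, blood vessels and immune cell clusters hanging from the stomach, and a common site of peritoneal metastasis. All mice had received 500000 cells of B16-OVA, a mouse melanoma line that makes the model antigen ovalbumin, into the peritoneal cavity on day 0. On day 6 they were given saline (PBS), or OT-I T lymphocytes, which recognise ovalbumin and had been loaded with IL-12 mRNA by electroporation, through an intraperitoneal (IP) or an intravenous (IV) injection, and the omenta were taken 18 h later. Each group had 3 mice, PBS 1, 2 and 3, IP 2, 3 and 4, and IV 1, 2 and 4, and the comparisons address what the T cells change by each route. Every mouse carried the tumour, there was no arm with OT-I cells lacking the mRNA, and the route of PBS is missing from the titles, so the parts of cells, mRNA and injection cannot be told apart. These are libraries of whole tissue, in which fewer cells of a type and less RNA per cell cannot be told apart.

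Respiratory complexes I and II pass electrons from NADH and succinate to ubiquinone, complex III passes them on to cytochrome c, and complex IV reduces oxygen. Complexes I, III and IV pump protons, and complex V, the ATP synthase, uses the gradient to make ATP. Mitochondrial DNA encodes core subunits of complexes I, III, IV and V, copied as long RNAs that are then divided into single messages, while all subunits of complex II and the remaining subunits of the others come from nuclear genes. In inflamed tissue and activated immune cells the balance between this pathway and glycolysis is known to shift.

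The 13 protein-coding genes of mitochondrial DNA were counted very unequally, and all but 1 of the poorly counted ones share nearly all their sequence with nuclear copies. mt-Co2 and mt-Co3 had 23 counts each over all libraries, mt-Atp6 had 14, mt-Atp8 3 and mt-Nd4l 2, while mt-Co1 had 1858298 and mt-Cytb 1188811. Of the 51-base words of mt-Co2, 51 bases being the length of 1 read, 100% were also found in other annotated transcripts of GENCODE M21. The share was 99.9% for mt-Co3, 99.5% for mt-Atp6, 98.8% for mt-Nd4l and 98.0% for mt-Nd3. The matching transcripts belong to Gm28661, Gm28437, Gm10925, Gm10222 and Gm28438, copies of mitochondrial sequence on chromosome 1. No word of mt-Nd1, mt-Cytb, mt-Nd6 or mt-Atp8 was shared, and the shares for mt-Nd4 and mt-Co1 were 62.2% and 50.6%. mt-Atp8, with few counts and no shared word, is the exception. It lies between mt-Co2 and mt-Atp6 in mitochondrial DNA, and only annotated transcripts were searched. No source used here states how reads with several matches were counted, and its part in these low counts was not tested.

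The following stretches show how little separates a mitochondrial gene from its copy. They run 5′ to 3′ from the first base of mt-Nd3 and of Gm28438, and the capital marks the 1 position that differs among 345 aligned bases, T3C (mt-Nd3 has the first base named, the copy the second, counted from the first base of mt-Nd3).
mt-Nd3: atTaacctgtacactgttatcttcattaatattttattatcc
Gm28438: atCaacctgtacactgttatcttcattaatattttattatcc
Bases 21 to 100 of mt-Co2, which is identical to Gm28661 over all 681 bases aligned, read as follows.
mt-Co2: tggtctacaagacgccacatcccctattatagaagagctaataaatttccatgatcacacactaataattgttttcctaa
The copies were themselves counted at low levels, 823 counts for Gm28438 and 42 for Gm28661. With 2 to 157 counts, the 5 genes under the threshold and mt-Nd3 are too thinly counted to describe the messages they name. Totals and medians over the 8 mitochondrial members include mt-Nd3, whose share of those totals is under 0.01%.

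**Figure D1:**
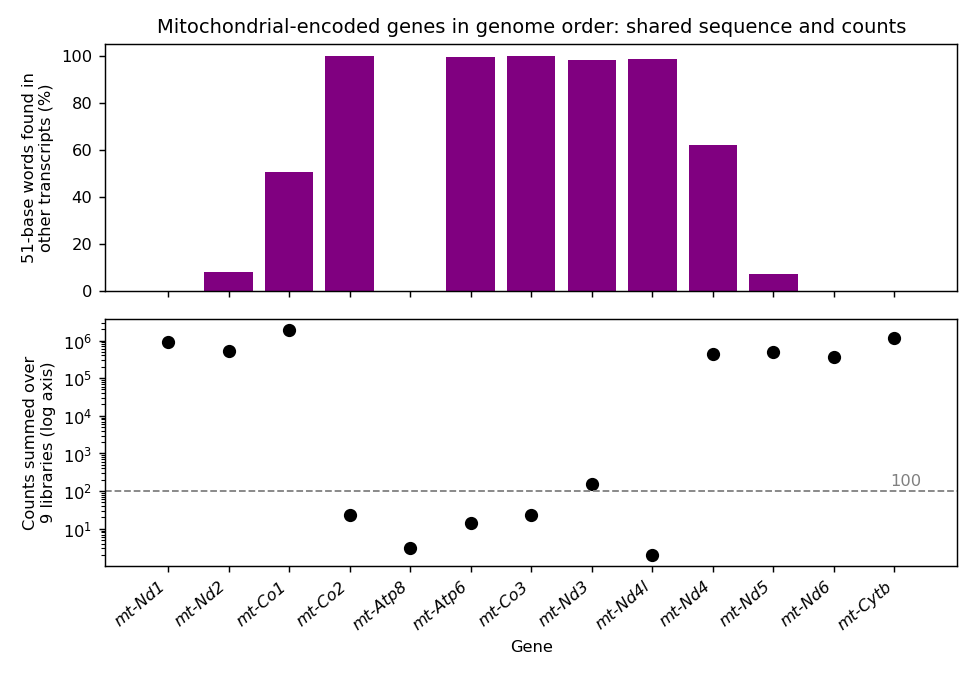
Upper panel: percent of each mitochondrial gene's 51-base words that also occur in other annotated transcripts. Lower panel: counts summed over 9 libraries on a log axis, with the threshold of 100 counts dashed. The run of genes from mt-Co2 to mt-Nd4l has between 2 and 157 counts, and their neighbours mt-Co1 and mt-Nd4 have 1858298 and 432008.

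Library totals ran from 7379798 counts (IV 2) to 44626843 (PBS 3). Some libraries stood apart from their groups. IV 4 was closer to PBS 3 (Pearson r = 0.985 over the 17123 genes on the log2(CPM + 0.5) scale) than to IV 1 (0.961) or IV 2 (0.968). The 12 listed markers of pancreatic acinar cells held 1.80% of the counts in IP 4, 2.40% in IV 1 and 0.449% in IV 2, and at most 0.0236% in each other library. The 10 melanoma markers, none at 0 in any library, held 3.29 to 3.56% of counts in PBS, 1.58 to 1.74% in IP and 2.19 to 2.70% in IV. Markers of white adipocytes and of mesothelial cells, which line the omentum, were present in every library.

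Messages encoded by mitochondrial DNA took a smaller share of the counts in every IP library than in any other library. The 8 mitochondrial members held 3.02, 2.28 and 2.20% of all counts in PBS, 1.61, 1.81 and 1.65% in IP and 2.15, 2.06 and 2.08% in IV. The 3 IP values lie below all 6 others, while the IV values lie just below the PBS range. The 92 nuclear members held 2.11, 2.75 and 1.90% in PBS, 1.60, 1.62 and 1.59% in IP and 2.46, 2.26 and 1.74% in IV, so that the IP libraries were again the lowest 3. Within a library the ratio of mitochondrial to nuclear counts does not depend on scaling, and it did not separate the groups. It was 1.43, 0.829 and 1.16 in PBS, 1.00, 1.12 and 1.03 in IP and 0.872, 0.910 and 1.20 in IV. The IP values lie inside the PBS range, and IV 4 is above both other IV libraries. The difference in the mean log2 ratio between IP and PBS was -0.08, and it was 0.10 without PBS 1 and -0.29 without PBS 2, the libraries with the highest and the lowest ratio.

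**Figure D2:**
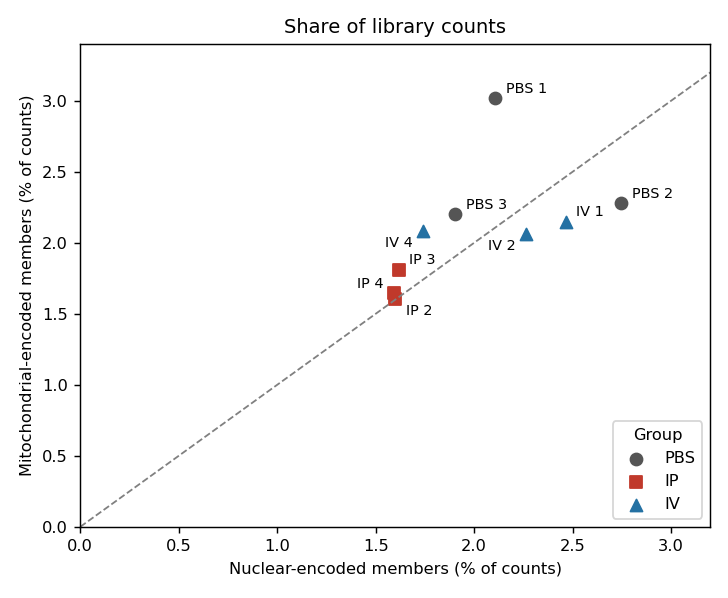
Percent of library counts held by the 8 mitochondrial-encoded members (vertical) against the 92 nuclear-encoded members (horizontal), 1 point per library, with the line of equal shares dashed. The 3 IP libraries sit together at the lowest shares of both kinds, while PBS and IV spread along both axes.

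The size of these shifts depended on how libraries were scaled. TMM, the scaling used for all fold changes, allows for a few very abundant messages taking up part of a library, and it gave the IP libraries the factors 0.930 to 0.949. On that scale the summed mitochondrial members stood at 28335, 22728 and 19976 CPM (counts scaled to library size) in PBS, 17088, 19483 and 17350.2 in IP and 22859.5, 20298 and 19570.2 in IV, and the highest IP library was only just below the lowest other one. The summed nuclear members stood at 19768, 27411 and 17274 CPM in PBS, 17019, 17388 and 16804 in IP and 26222, 22299 and 16362 in IV, where the IP libraries overlapped with PBS 3 and IV 4. Scaling by library totals moved the median log2 fold change of all genes in IP against PBS from 0.02 to -0.15, and that of the members from -0.27 to -0.42.

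Per gene, 11 of the 100 members passed an adjusted p of 0.05 in IP against PBS, 4 higher and 7 lower. Over all genes tested 32.9% passed, 18.7% higher and 14.2% lower, a larger share than the 11 of 100 members, a difference that was not tested. Ndufa4l2, Cox6b2, Cox4i2 and mt-Nd3 rose, and Ndufs1, Atp5a1, Atp5b, Cox7a1, mt-Nd1, mt-Nd2 and mt-Nd5 fell. Yet 88 of the 100 had a fold change below 0, with a median of -0.27 on the log2 scale, where the median of all genes was 0.02. In 29 members all IP libraries lay below all PBS libraries, and in 4 above. Over all genes these shares were 24.8% and 28.4%. With library totals in place of TMM the split was 3 higher and 32 lower, where 20.8% of all genes were lower. The count of 7 lower members was 3 without PBS 1, 15 without PBS 3, 13 without IV 4, and 2 without IP 2 or without IP 4. The share of all genes called lower moved as well. It was 9.09% without PBS 1, 12.3% without PBS 3, 16.7% without IV 4, 9.07% without IP 2 and 9.75% without IP 4. Only Ndufs1 and Cox7a1 among the 7 passed in all 18 alternative settings, and Ndufa4l2 and Cox6b2 among the 4 that rose.

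Of the 8 mitochondrial messages 3 fell in IP, 1 rose and 4 did not pass. mt-Nd5, a core complex I subunit of the membrane arm, stood at 3295, 1863 and 2073 CPM in PBS, 1209, 1496 and 1028 in IP and 1049, 1089 and 1719 in IV. All treated libraries lay below all PBS libraries. Its log2 fold change was -0.95 ± 0.26 (SE) in IP (adjusted p = 0.0166) and -0.91 ± 0.26 in IV (adjusted p = 0.0388), and the routes differed by only -0.05 ± 0.26 (adjusted p = 0.938). mt-Nd2, another membrane-arm subunit, stood at 2693, 2173 and 1846 CPM in PBS, 1337, 1573 and 1293 in IP and 2262, 2032 and 1758 in IV. It was lower in every IP library than in any other library, with a fold change in IP against PBS of -0.68 ± 0.17 (adjusted p = 0.0105). mt-Nd1, which helps form the ubiquinone site of complex I, stood at 4631, 3759 and 3184 CPM in PBS, 2366, 2675 and 2434 in IP and 4261, 3443 and 3037 in IV, and showed the same order of groups. Its fold change in IP was -0.63 ± 0.17 (adjusted p = 0.0162). In IV against PBS mt-Nd1 and mt-Nd2 had fold changes of -0.11 and -0.15, neither past the threshold. The direct comparison of IP with IV gave -0.52 ± 0.17 (adjusted p = 0.0798) and -0.53 ± 0.17 (adjusted p = 0.0732).

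These calls rest on few mice. Without IP 2 or without IP 4 the calls of mt-Nd1, mt-Nd2 and mt-Nd5 in IP were lost, those of mt-Nd1 and mt-Nd5 also without PBS 1, with adjusted p of at most 0.0745, 0.0628 and 0.0798 over all settings in that order. The call of mt-Nd5 in IV was lost without PBS 1, without any 1 of the IP libraries, without IV 1 and without IV 2, with adjusted p up to 0.163. mt-Nd5 and mt-Nd6 lie on opposite strands with their ends side by side, and since no source used here states the strand setting of the counting, RNA antisense to either cannot be told apart from it.

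Of the other 5 mitochondrial messages 4 did not pass the test. mt-Cytb, the mitochondrial subunit of complex III, stood at 5754, 4617 and 4119.9 CPM in PBS, 3411, 3947 and 3799 in IP and 5325, 4471 and 3784 in IV. Its IP and PBS values did not overlap, and the fold change was -0.38 ± 0.17 (adjusted p = 0.110). mt-Co1, the catalytic subunit of complex IV, stood at 8516, 7341 and 6233 CPM in PBS, 6491, 7272 and 6240.0 in IP and 5629.7, 5768 and 6769 in IV, with overlapping groups and fold changes of -0.14 in IP and -0.28 in IV. mt-Nd4, of the membrane arm of complex I, stood at 1984, 1503 and 1405 CPM in PBS, 1183, 1331 and 1365 in IP and 2396, 1992 and 1425 in IV. Its IP libraries lay below all others, with fold changes of -0.33 in IP and 0.25 in IV. mt-Nd6, the only protein-coding gene on the other strand, had -0.22 and 0.16. For mt-Nd3 the counts were 14, 6 and 12 in PBS, 47, 14 and 22 in IP and 19, 6 and 17 in IV, too few to be set beside those of the other messages. It passed in IP against PBS with 1.74 ± 0.51 (adjusted p = 0.0223), a call lost without PBS 2, without PBS 3 or without IP 2, and 98.0% of its words also belong to a nuclear copy.

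**Figure D3:**
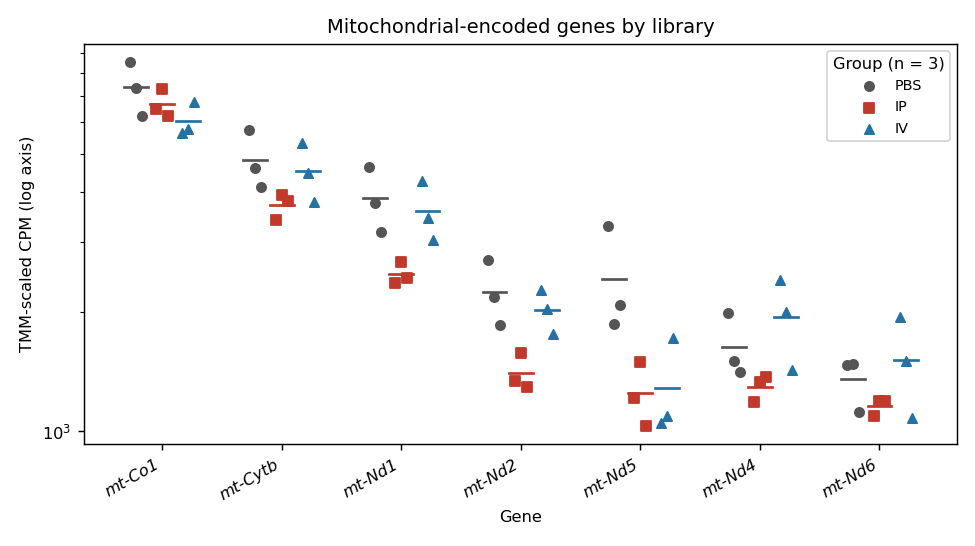
TMM-scaled CPM of 7 mitochondrial-encoded genes on a log axis, 1 point per library, with group means as bars. For mt-Nd1, mt-Nd2 and mt-Nd4 the IP libraries lie below all others, for mt-Nd5 both treated groups lie below PBS, and for mt-Co1 the groups overlap.

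Seen as shares of all mitochondrial counts, which again need no scaling, the mix of messages differed between the libraries of the groups, given here as a description. mt-Nd1 made up 16.3, 16.5 and 15.9% of mitochondrial counts in PBS, 13.8, 13.7 and 14.0% in IP and 18.6, 17.0 and 15.5% in IV. mt-Nd2 made up 9.50, 9.56 and 9.24% in PBS, 7.82, 8.07 and 7.45% in IP and 9.90, 10.0 and 8.98% in IV. In both, the 3 IP values lie below the 6 others. mt-Nd4 made up 7.00, 6.61 and 7.03% in PBS, 6.92, 6.83 and 7.87% in IP and 10.5, 9.81 and 7.28% in IV, where every value is above PBS. mt-Co1 took 30.1, 32.3 and 31.2% in PBS and 38.0, 37.3 and 36.0% in IP, where every value is above PBS, and 24.6, 28.4 and 34.6% in IV, which spreads from below to above PBS. mt-Nd5 took 11.6, 8.20 and 10.4% in PBS, 7.08, 7.68 and 5.93% in IP and 4.59, 5.36 and 8.78% in IV, with IV 4 inside the PBS range. Shares within a total are bound together, so a higher share of mt-Co1 goes with lower shares of others. Per kilobase of annotated exon, the mean level in PBS was 4766 CPM for mt-Co1, 4222 for mt-Cytb, 4032 for mt-Nd1, 2600.5 for mt-Nd6, 2155 for mt-Nd2, 1322 for mt-Nd5 and 1183 for mt-Nd4. The highest nuclear member on that scale was Atp5b with 634, below all 7, though shared words make the levels of mt-Co1 and mt-Nd4 uncertain. The length used joins all annotated exons of a gene, 4237 bases for Atp5b, which can be more than 1 message holds. The order of mitochondrial and nuclear genes on this scale therefore depends on that length, and message lengths were not used.

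Both mitochondrial ribosomal RNAs rose in IP. mt-Rnr1, the small-subunit RNA, stood at 286, 308 and 228 CPM in PBS, 494, 397 and 425 in IP and 512, 454 and 406 in IV, and every treated library was above every PBS library. It rose by 0.68 ± 0.16 on the log2 scale in IP (adjusted p = 0.00758) and by 0.74 ± 0.16 in IV (adjusted p = 0.0128). mt-Rnr2, the large-subunit RNA, rose by 0.60 ± 0.15 in IP (adjusted p = 0.0120, lost without IP 2). Both are not members, were added after their values were seen, and are only partly captured by the poly(A) selection used here.

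The nuclear subunits leaned downwards in IP in all 5 complexes, but few of them passed the test. Of 76 structural subunits, 71 had a fold change below 0 in IP against PBS, with a median of -0.27. At the threshold 3 fell and none rose, beside 14.2% of all genes lower and 18.7% higher. In 21 of the 76 the IP libraries lay below all PBS libraries, a share close to the 24.8% of all genes. The median was -0.21 over 37 subunits of complex I, -0.35 over 4 of complex II, -0.30 over 8 of complex III, -0.25 over 11 of complex IV and -0.37 over 16 of complex V. Over the 8 Ndufaf genes, which help to assemble complex I and are not part of it, the median was -0.07. As shares of library counts the summed subunits of each complex were lower in all 3 IP libraries than in the 6 others, for example 0.812, 0.986 and 0.755% in PBS, 0.566, 0.590 and 0.594% in IP and 0.862, 0.806 and 0.668% in IV for complex V. On the TMM scale this held for complex II, and for complex V in 2 of the 3 IP libraries.

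**Figure D4:**
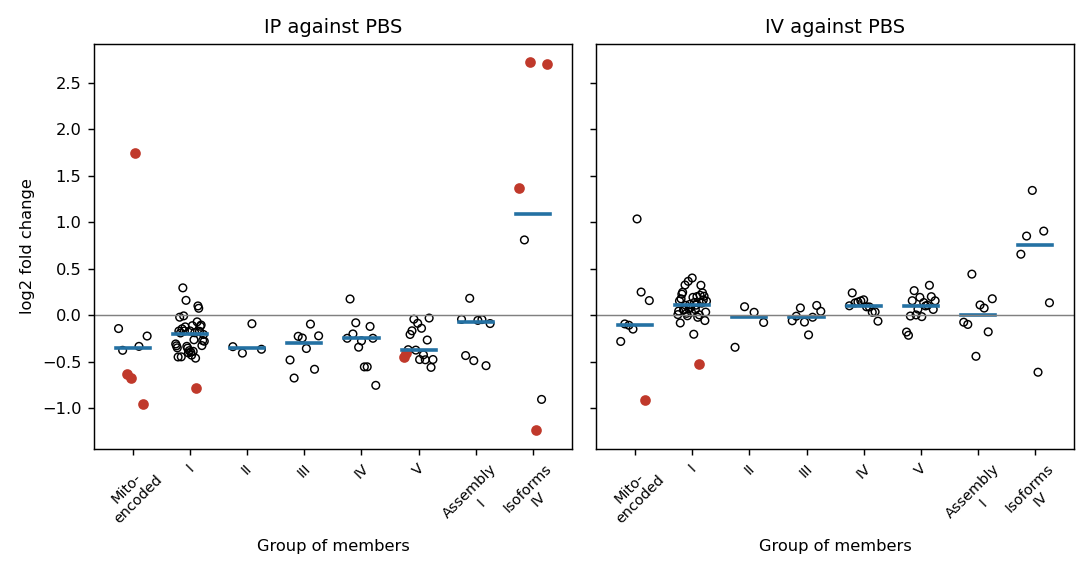
Log2 fold changes of the members in IP against PBS (left) and IV against PBS (right), grouped as mitochondrial-encoded, nuclear subunits of complexes I to V, complex I assembly factors and complex IV isoforms. Filled red points passed an adjusted p of 0.05, and blue bars are medians, which lie below 0 for complexes I to V on the left and between -0.02 and 0.11 on the right.

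In complex I, Ndufs1 stood out. It carries iron-sulfur clusters in the arm that accepts electrons from NADH, and its CPM was 310.0, 307 and 269.9 in PBS, 159, 180.0 and 178 in IP and 200.1, 194 and 223 in IV. No treated library reached the lowest PBS library. Ndufs1 fell by 0.78 on the log2 scale in IP (SE 0.12, adjusted p = 0.000779) and by 0.52 in IV (SE 0.12, adjusted p = 0.0185). The IP call held in all 18 alternatives, and the IV call was lost without PBS 1 or without IV 2, with adjusted p up to 0.0854. The remaining 36 nuclear subunits of complex I passed in neither comparison. They ranged in IP from -0.46 for Ndufc2 to 0.29 for Ndufa7.

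Complex II, succinate dehydrogenase, is also an enzyme of the tricarboxylic acid cycle, and none of its 4 subunits passed. Sdha, the flavin-bearing catalytic subunit, stood at 377, 404 and 374 CPM in PBS, 299, 308 and 307 in IP and 303, 269.6 and 337 in IV. All 6 treated libraries lay below all PBS libraries, with fold changes of -0.34 ± 0.12 in IP (adjusted p = 0.0588) and -0.34 ± 0.12 in IV (adjusted p = 0.0847). Sdhb, the iron-sulfur subunit, had -0.41 ± 0.20 in IP, and the membrane anchor Sdhd -0.37 ± 0.18. The other anchor, Sdhc, stood at 201, 241 and 175 CPM in PBS and 198, 193 and 189 in IP, overlapping.

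In complexes III and IV no structural subunit passed. In complex III the fold changes in IP ran from -0.67 for Uqcr11 to -0.10 for Uqcrfs1, the Rieske iron-sulfur protein. In complex IV they ran up to 0.17 for Cox5a, and the lowest was Ndufa4. Ndufa4, now counted as a subunit of that complex despite its name, stood at 691, 1046 and 531 CPM in PBS, 451, 471 and 424 in IP and 955, 709 and 507 in IV. Every IP library was below every other library, and the fold changes were -0.75 ± 0.27 against PBS (adjusted p = 0.0508) and -0.69 ± 0.27 against IV (adjusted p = 0.130).

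In complex V both large subunits of the catalytic head fell in IP. Atp5a1, the alpha subunit, stood at 1514, 1717 and 1410.2 CPM in PBS, 1069, 1160.2 and 1158 in IP and 1545, 1339 and 1211 in IV, with a fold change in IP of -0.45 ± 0.14 (adjusted p = 0.0262). Atp5b, the catalytic beta subunit, stood at 2604, 3056 and 2404 CPM in PBS, 1913, 2059.8 and 2115 in IP and 2557, 2204 and 2185 in IV, with -0.41 ± 0.13 in IP (adjusted p = 0.0393). For both genes the IP libraries lay below all others. Both calls were lost without PBS 1 and without each of the IP libraries, and that of Atp5b also without PBS 2, with adjusted p up to 0.148 and 0.158. The remaining 14 subunits had fold changes between -0.56 for Atp5mpl and -0.03 for Atp5l. Usmg5 and Atpif1, a subunit and an inhibitor of this enzyme under older symbols that the member rule does not reach, did not pass either, with a median of -0.54.

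Single libraries moved the nuclear subunits together, across groups. Of the 76, 38 were highest in PBS 2 and 35 in IV 1, where 14.9% and 11.0% of all genes tested had their highest value. The lowest value fell in IV 4 for 31 subunits and in PBS 3 for 22. For the 38 subunits with up to 1718 bases of exon, the median deviation from the mean of all libraries was 0.53 on the log2 scale in PBS 2, 0.54 in IV 1 and 0.28 in IV 2, -0.31 in PBS 3, -0.33 in IV 4, and between -0.26 and -0.17 in the IP libraries. For 37 subunits with more bases of exon it was 0.41, 0.45 and 0.17 in the first 3. It was -0.22 and -0.28 in PBS 3 and IV 4, and -0.20 to -0.17 in IP. Other protein-coding genes of up to 1718 bases deviated in the same direction in those 5 libraries, by 0.10, 0.32, 0.25, -0.30 and -0.22, but by only 0.02 to 0.04 in IP. The split by length was chosen after seeing the data. It used all annotated exons of a gene joined, which can be more than its transcripts hold, so short and long transcripts were not compared. The part of transcript length in the results was not tested.

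The promoters of the nuclear members were searched for short motifs known from respiratory chain genes. RefSeq promoters of the GRCm38.p6 build, 250 bases before to 50 after the start site, were matched for 76 of the 92 nuclear members. The NRF1 motif, spelled by the capitals in the windows below and the same on both strands, was in 7 of the 76 (9.21%) and in 290 of all 27025 genes with a promoter (1.07%). These 27025 genes were not limited to those tested here, and base composition was not matched. CCGGAAG, a motif of ETS factors such as GABP, was on either strand in 18 (23.7%) against 9.93%, and AAGATGGC, of YY1, in 11 (14.5%) against 3.19%, with overlaps between motifs not removed. The windows below, printed 5′ to 3′ in the direction of the gene, show the NRF1 match in capitals for a subunit of each of 4 complexes. They are chr17:56717687-56717726 (plus strand) for Ndufa11 of complex I, chr9:108936663-108936697 (plus strand) for Uqcrc1 of complex III, chr5:115349096-115349135 (minus strand) for Cox6a1 of complex IV and chr15:102671065-102671104 (minus strand) for Atp5g2 of complex V.
Ndufa11: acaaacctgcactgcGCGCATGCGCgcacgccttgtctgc
Uqcrc1: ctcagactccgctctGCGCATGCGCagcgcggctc
Cox6a1: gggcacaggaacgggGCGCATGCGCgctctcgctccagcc
Atp5g2: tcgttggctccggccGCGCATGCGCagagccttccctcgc
None of these 4 genes passed in any comparison with TMM scaling and all libraries, though Uqcrc1 was lower in IP against PBS with library totals, and a match is a description of sequence, not of binding.

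Apart from the thinly counted mt-Nd3, the largest fold changes among the members in IP were in alternative subunits of complex IV, all at low levels. Ndufa4l2, a relative of Ndufa4 known as a hypoxia-induced gene, stood at 1.37, 2.65 and 1.71 CPM in PBS, 12.7, 12.8 and 11.3 in IP and 3.38, 0.800 and 1.64 in IV. Every IP library was more than 3 times the highest other library. It rose by 2.70 ± 0.40 against PBS (adjusted p = 0.000498) and was higher than in IV by 2.56 ± 0.40 (adjusted p = 0.00344). Relative to Ndufa4 its counts were 0.0283, 0.0272 and 0.0266 in IP, and between 0.00113 and 0.00354 in the other libraries. Cox6b2, known from testis, stood at 0.300, 0.537 and 0.244 CPM in PBS, 1.88, 1.52 and 3.54 in IP and 1.06, 1.07 and 0.639 in IV, 3 steps without overlap. It rose by 2.72 ± 0.46 in IP (adjusted p = 0.00122), with 1.34 ± 0.48 in IV (adjusted p = 0.0846). Its widely expressed counterpart Cox6b1 had 318, 312 and 291 CPM in IP and 346, 522 and 299 in PBS, overlapping. Cox4i2, a lung and low-oxygen form, had 0.437, 1.19 and 0.386 CPM in PBS, 1.78, 1.99 and 1.31 in IP and 0.946, 1.60 and 0.753 in IV. It rose by 1.37 ± 0.48 in IP (adjusted p = 0.0487), lost without PBS 1, PBS 3, IV 1 or any 1 IP library (up to 0.172), against 623, 627 and 593 CPM for the common form Cox4i1 in the same IP libraries.

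The heart and muscle forms went down or did not pass. Cox7a1 stood at 10.8, 15.7 and 8.84 CPM in PBS, 5.10, 5.59 and 4.31 in IP and 10.3, 6.00 and 6.53 in IV. The IP libraries were the lowest 3, and the fold changes were -1.24 ± 0.27 in IP (adjusted p = 0.00522) and -0.61 ± 0.27 in IV (adjusted p = 0.146). The common form Cox7a2 had 373, 542 and 271 CPM in PBS and 266, 278 and 262 in IP. Cox8b had only 217 counts, 26, 12 and 50 in PBS, 10, 15 and 7 in IP and 47, 13 and 37 in IV. On the CPM scale all IP libraries lay below all IV libraries, and Cox8b was lower in IP than in IV by -1.81 ± 0.51 (adjusted p = 0.0497). That call, just past the threshold, was lost in 11 of 18 settings, among them without PBS 1, PBS 3, IV 1, IV 2 or any 1 IP library, with adjusted p up to 0.287. Cox6a2, with 166 counts, had 0.81 ± 0.51 in IP and 0.85 ± 0.53 in IV, neither past the threshold, beside the common forms Cox6a1 at 267, 433 and 252 and Cox8a at 285, 463 and 259.9 CPM in PBS. Of 10 striated muscle markers 6 were counted well enough to test. Of those, 1 rose in IP and 2 in IV and none fell, beside 18.7% and 10.4% of all genes higher. All 10 together held 0.00464 to 0.00568% of counts in PBS, 0.00580 to 0.00678% in IP and 0.00618 to 0.00885% in IV. Myh2 and Myh4 were at 0 outside IV 2. Of 6 brown adipocyte markers 2 were tested, Ucp1 with 2, 4 and 15 counts in PBS, 37, 11 and 12 in IP and 39, 0 and 18 in IV, and Dio2. Of these 2, 1 rose in IP and none in IV. The part of the muscle and brown adipocyte markers in the changes of these isoforms was not tested.

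**Figure D5:**
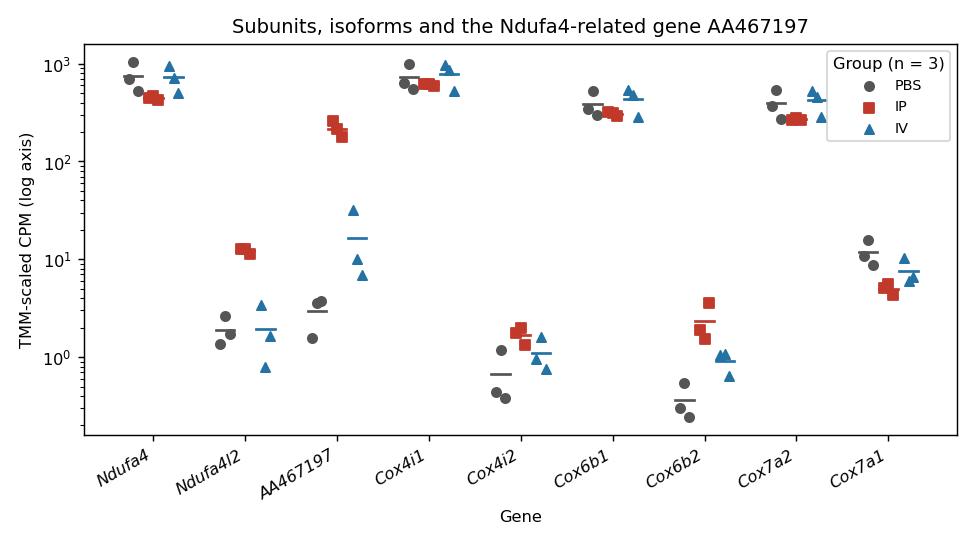
TMM-scaled CPM on a log axis of common and alternative complex IV subunits and of AA467197, 1 point per library, with group means as bars. AA467197 separates all 3 groups, Ndufa4l2 separates IP from the others, and the common forms Cox4i1, Cox6b1 and Cox7a2 overlap between IP and PBS.

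AA467197, the mouse gene for a small protein related to Ndufa4 that is known to take its place in complex IV during inflammation, is not a member by symbol. It stood at 1.58, 3.57 and 3.78 CPM in PBS, 258, 216 and 178 in IP and 32.2, 10.0 and 6.92 in IV. The groups did not overlap, and each IP library was over 5 times the highest IV library. It rose by 6.19 ± 0.66 in IP (adjusted p = 0.000161) and by 2.48 ± 0.58 in IV (adjusted p = 0.0226), and the routes differed by 3.71 ± 0.58 (adjusted p = 0.00539). The IV call was lost when any 1 PBS library was left out (adjusted p up to 0.0874), and without IV 1 the IV fold change was 1.46. Set against Ndufa4 in the same library, its counts were 0.00229, 0.00341 and 0.00712 of those of Ndufa4 in PBS, 0.571, 0.459 and 0.419 in IP and 0.0337, 0.0141 and 0.0137 in IV. All 8 neutrophil markers rose in IP, from a summed 0.00162 to 0.00404% of counts in PBS to 0.0289 to 0.0395%, with 0.00405 to 0.0204% in IV and 1 marker at 0 in PBS 2. Of 9 monocyte and macrophage markers 7 rose and 1 (Mrc1) fell in IP, with summed shares from 0.0743 to 0.146% in PBS to 0.261 to 0.282%, with 0.213 to 0.279% in IV and none at 0. Over all genes 18.7% were higher and 14.2% lower in IP. The part of these markers in the change of AA467197 was not tested.

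With intravenous delivery few respiratory chain genes passed the test. In IV against PBS 2 of 100 members passed, both lower (mt-Nd5 and Ndufs1), and none passed higher, where 16.1% of all genes passed, 10.4% higher and 5.66% lower. At an unadjusted p of 0.05 there were 1 higher and 4 lower members of 100. All genes were not counted at that threshold, so no result about the members is read from it. DESeq2's Wald test and limma voom also called none higher, where 13% and 9.22% of all genes were. The median was 0.09 over the nuclear members and -0.10 over the mitochondrial ones, beside 0.04 for all genes. Without IV 4, the library near PBS 3, 2 members passed as higher (Cox6b2 and Ndufaf3), where 13.2% of all genes did. The 2 lower members became 0 without PBS 1 or without IV 2, and 1 (Ndufs1) without IV 1 or without any 1 IP library. All genes called lower were 1.19% without PBS 1, 2.36% without IV 2, and 3.38 to 3.71% in the other settings just named. In IP against IV, which tests the difference between the routes, Ndufa4l2 was higher and Cox8b lower, 2 of 100 members where 10.4% of genes passed, 5.93% higher and 4.47% lower. With library totals that split was 1 higher and 7 lower, beside 4.2% and 6.06% of all genes. With DESeq2's size factors it was 1 and 0, beside 5.79% and 4.35%. In the direct comparison 93 of the 100 were below 0, with a median of -0.30, beside -0.02 for all genes. Leaving out IV 4 raised the lower calls from 1 to 24 of 100, where the share of all genes called lower was 6.61%. They were mt-Nd1, mt-Nd2, mt-Nd4 and mt-Nd6, 6 nuclear subunits of complex I, Sdhb, Uqcrh, 5 genes of complex IV (Ndufa4, Cox6b1, Cox7a2, Cox7b and Cox8b) and 7 of complex V. The IV libraries then left, IV 1 and IV 2, held 2.40% and 0.449% of counts in acinar markers, against 0.00102% in IV 4. IV 1 was also the highest library for 35 of the 76 nuclear structural subunits. The part of these libraries in the 24 calls was not tested. Both treated groups share the PBS libraries, so their fold changes against PBS are not independent.

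Marker lists of other cells in the tissue are given beside these results. Over all genes 18.7% were higher and 14.2% lower in IP, and 10.4% higher and 5.66% lower in IV. In IP against IV 4.47% were lower. Of 10 T cell markers 7 rose in IP and 8 in IV, from 0.00542 to 0.0138% of counts in PBS to 0.0257 to 0.0304% in IP and 0.0133 to 0.0380% in IV. Of 8 B cell markers all rose in IV and were lower in IP than in IV, and 2 fell in IP, with 0.00625 to 0.00784% in PBS, 0.00392 to 0.00647% in IP and 0.0129 to 0.0518% in IV. All 12 proliferation markers fell in IP, from 0.228 to 0.244% of counts in PBS to 0.0920 to 0.107%, with 0.135 to 0.178% in IV, and 7 fell in IV. Of the 10 melanoma markers whose summed shares are given above, 7 fell in IP and 4 in IV. Of 10 white adipocyte markers none fell in IP and 1 rose, and 3 rose in IV, with summed shares of 0.0626 to 0.116% in PBS, 0.0533 to 0.0903% in IP and 0.110 to 0.144% in IV. None of these 5 lists had a marker at 0. Their part in the lower respiratory chain messages was not tested. Without IP 4 and IV 1 together, the libraries with most acinar transcripts, 2 members were lower in IP against PBS (Ndufs1 and Cox7a1), where 10.3% of all genes were. The same 2 were left without IP 2 alone and without IP 4 alone.

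Other genes of the pathway were read from lists. Enzymes of the tricarboxylic acid cycle, which feeds the chain with NADH and succinate, were mostly lower in IP. Of 14 enzymes 9 fell in IP and none rose, with a median of -0.46, and 3 fell in IV, beside 14.2% and 5.66% of all genes called lower. Idh2, the NADP-dependent mitochondrial isocitrate dehydrogenase, stood at 419.6, 533 and 366 CPM in PBS, 147, 161 and 174 in IP and 348, 296 and 253 in IV, in 3 steps without overlap. Its fold change was -1.45 ± 0.18 in IP (adjusted p = 0.000147), and IP was below IV by -0.90 ± 0.17 (adjusted p = 0.00936, lost without IP 2). Idh3a, a subunit of the NAD-dependent enzyme, fell in both groups (-0.87 ± 0.13 in IP, -0.60 ± 0.13 in IV). Suclg2, a subunit of a succinyl-CoA ligase, had -0.82 ± 0.12 in IP. The fold changes of these 3 genes in IP passed in all 18 alternatives, while in IV the call of Idh3a was lost without PBS 1, and that of Dld, a subunit shared by several dehydrogenase complexes, without most single libraries.

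Of 11 regulators of mitochondrial biogenesis 9 were tested, and 2 fell and 1 rose in IP, beside 14.2% of all genes lower and 18.7% higher. Ppargc1a, the coactivator PGC-1 alpha that drives respiratory chain genes, stood at 314, 267 and 262 CPM in PBS, 137, 153 and 170.3 in IP and 156, 125 and 184 in IV. All treated libraries lay below all PBS libraries, with -0.87 ± 0.16 in IP (adjusted p = 0.00197) and -0.86 ± 0.16 in IV (adjusted p = 0.00727), and both calls held in all 18 alternatives. Gabpa, the ETS factor of the motif above, had -0.56 ± 0.16 in IP (adjusted p = 0.0211) and -0.53 ± 0.16 in IV (adjusted p = 0.0475), the latter lost without any 1 library other than IV 4. Its IP call was lost without PBS 1, PBS 3, IP 2 or IP 4 (up to 0.0855). Perm1, a muscle regulator acting with PGC-1 alpha, rose from 1.17, 0.461 and 0.894 CPM in PBS to 4.28, 3.94 and 3.64 in IP (2.20 ± 0.33, adjusted p = 0.000498), with 1.64, 1.73 and 1.73 in IV.

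Of 24 genes for copying mitochondrial DNA and processing its RNA, 5 fell and 1 rose in IP, beside 14.2% of all genes lower and 18.7% higher. In IV 3 fell, beside 5.66% of all genes (Lrpprc, Lonp1 and Grsf1, each lost without several single libraries). The falls in IP were Polrmt, the mitochondrial RNA polymerase (-0.43 ± 0.11), Tfb2m, its transcription factor (-0.73 ± 0.20), Twnk, the replication helicase (-0.56 ± 0.13), Polg, the DNA polymerase (-0.48 ± 0.13), and Lrpprc, which stabilises mitochondrial messages (-0.51 ± 0.12). Tfb2m and Polg were named after their values were seen, and their calls were not followed over the alternative settings. Lrpprc stood at 124, 109 and 107 CPM in PBS, 71.7, 85.4 and 81.1 in IP and 87.1, 77.2 and 87.1 in IV, below PBS in every treated library. Pnpt1, a polynucleotide phosphorylase that degrades mitochondrial RNA and an interferon-induced gene, stood at 74.1, 78.8 and 67.3 CPM in PBS, 119, 135 and 102 in IP and 76.2, 78.8 and 77.2 in IV. It rose by 0.69 ± 0.12 in IP (adjusted p = 0.00163), was higher in IP than in IV by 0.62 ± 0.12 (adjusted p = 0.0115, lost without IP 2 or IP 3), and overlapped between IV and PBS. The IP calls of Pnpt1 and Lrpprc held in all 18 alternatives, while that of Polrmt was lost without IP 2 or IP 4 and that of Twnk without PBS 1.

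Among 34 assembly factors of complexes II to V, 32 of them tested, 4 rose and 1 fell in IP, and 2 rose and 3 fell in IV. Of all genes 18.7% were higher and 14.2% lower in IP, and 10.4% higher and 5.66% lower in IV. Atpaf1, a chaperone for the head of the ATP synthase, fell from 23.6, 24.8 and 21.3 CPM in PBS to 11.6, 11.3 and 10.8 in IP (-1.05 ± 0.13, adjusted p = 0.000177) and to 15.5, 15.2 and 17.0 in IV (-0.54 ± 0.13, adjusted p = 0.0200, lost without PBS 1 or IV 2). Cox17, a copper carrier for complex IV, rose from 22.4, 25.8 and 18.3 to 44.7, 41.7 and 39.6 CPM in IP (0.92 ± 0.19, adjusted p = 0.00326). Uqcc3 and Sdhaf2, which assist complexes III and II, also rose (0.78 ± 0.20 and 0.44 ± 0.13), as did Cox18 (0.58 ± 0.18), named after its values were seen. The call of Uqcc3 was lost without PBS 1 or IP 2, and that of Sdhaf2 without PBS 1, PBS 3 or any 1 IP library. That of Cox18 was not followed over the alternative settings. Of 9 complex I assembly genes outside the symbol rule Tmem186 fell in IP (-0.42 ± 0.14, adjusted p = 0.0394, lost without any 1 PBS or IP library). Of 5 further subunits and partners none passed, with -0.58 ± 0.21 for Cyc1, the cytochrome c1 of complex III (adjusted p = 0.0557).

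Of 19 carriers, import proteins and porins, often used as a gauge of mitochondrial content, 3 fell in IP and 1 in IV (Tomm20, lost without most single libraries), shares of the list near those of all genes called lower (14.2% and 5.66%). Tomm20, an import receptor of the outer membrane, stood at 166, 189.7 and 147 CPM in PBS, 99.4, 107 and 96.7 in IP and 136, 123 and 111 in IV, and fell by 0.73 in IP (SE 0.13, adjusted p = 0.00172). Slc25a4, the ADP and ATP carrier of muscle and heart, had -0.68 ± 0.18 in IP (lost without IP 2 or IP 4), and Immt, which shapes the cristae, -0.51 ± 0.13 (lost without IP 2). The porins Vdac1, Vdac2 and Vdac3 did not pass in any comparison.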

How the data were processed

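RNA from 9 mouse omenta was sequenced after poly(A) selection with a directional kit, in pairs of 51-base reads, per the labels' protocols. The authors deposited raw counts per gene for 55359 genes and a table of log2 CPM for 18833 genes, which was recomputed from the counts within 4.9738e-14. Per the submitters' processing notes, the tools included STAR 2.7.9, featureCounts and limma, and the build was mm39. The strand setting and the handling of reads with several matches were not stated. Symbols were found for 52083 gene IDs. 

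Fold changes come from edgeR 4.0.16 (R 4.3.3) with TMM scaling and the quasi-likelihood test over all 3 groups, fitted to the 17123 genes left by edgeR's filter on low counts, with Benjamini-Hochberg adjustment over all of them and a threshold of 0.05. CPM values are TMM-scaled, and ± gives the standard error. DESeq2 1.42.0, limma 3.58.1, other scalings, no filter, a replicate block and leaving out libraries were alternatives. Single values of 3 against 3 libraries could not reach an exact two-sided permutation p below 0.1 and were not tested. Nothing beyond the labels says how independent the mice were, so p-values measure the spread between these samples.

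The members and gene lists were chosen with earlier results of these data known. By rule the text names the mitochondrial members, Sdha to Sdhd, the complex IV isoform pairs, nuclear members that passed in groups without overlap, members next to the count threshold, AA467197 and, from each list, up to 4 genes with the smallest p in each comparison. Genes at the ends of a range, genes named under alternatives, markers and the porins were chosen after their values were seen. Sharing of sequence was measured on GENCODE M21 transcripts, and promoters are from RefSeq, both of the GRCm38 build, which is not the build of the counts. Results for 1 gene of these lists are not reported here.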

Additional observations from a re-analysis of the deposited data

Results flagged for a closer look

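In 10 genes the IP and IV groups differed in the direct comparison, which tests whether the 2 routes act unequally (edgeR, adjusted p under 0.05, log2 scale, IP minus IV). Ndufa4l2 was higher in IP by 2.56 and AA467197 by 3.71. Perm1 was higher by 1.22, a call lost without any 1 IP or IV library, Pnpt1 by 0.62, lost without IP 2 or IP 3, and Hspa9, a mitochondrial chaperone, by 0.50, lost without PBS 1 or any 1 IP or IV library. Cox8b was lower in IP, with -1.81 on few counts. Idh2 differed by -0.90 (lost without IP 2), Fh1, the fumarase, by -0.54, Atpaf1 by -0.51 and Suclg2 by -0.44. The calls of Fh1, Atpaf1 and Suclg2 were lost without PBS 1, IV 1 or any 1 IP library, those of Fh1 and Atpaf1 also without IV 2, and that of Atpaf1 also without IV 4.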

How the results depend on the processing

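The count of respiratory chain genes past the threshold moved with the settings. For genes lower in IP against PBS, 7 as reported, it was 11 with DESeq2's size factors, 32 with library totals, 13 with only the 2 groups compared, 13 with DESeq2's Wald test, 26 with limma on the deposited log2 CPM and 2 without IP 4 and IV 1 together. The shares of all genes called lower were, in that order, 15.1, 20.8, 18.8, 17.2, 18.5 and 10.3%, against 14.2% as reported. Leaving out 1 library gave 2 (IP 2 or IP 4) to 15 (PBS 3), where 9.07%, 9.75% and 12.3% of all genes were called lower. For genes higher in IP the range was 2 (without PBS 3 or IP 2) to 4, beside 13.4 to 20.6% of all genes. In IV against PBS the lower genes numbered 0 with only the 2 groups compared and 0 without IP 4 and IV 1 together, with 0 to 3 over single libraries left out, and the higher genes 0 to 2. All genes called lower were 1.66% and 1.87% in the first 2 settings. Over single libraries left out, 1.19 to 12.8% of all genes were lower and 4.37 to 13.2% higher. In IP against IV the higher genes numbered 2 with DESeq2's Wald test, where 9.22% of all genes were higher. The lower genes numbered 0 with DESeq2's size factors, 7 with library totals, 2 with only the 2 groups compared, 4 with DESeq2's Wald test, 0 with limma voom, 6 with limma on the deposited log2 CPM and 0 without IP 4 and IV 1 together. The shares of all genes called lower were, in that order, 4.35, 6.06, 4.32, 7.59, 3.78, 5.69 and 2.14%. Leaving out 1 library gave 0 (each library other than PBS 2 and IV 4) to 24 (IV 4, where 6.61% of all genes were lower). The cause of these shifts was not tested, except that fewer samples enter when libraries are left out.

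Among the values recomputed, direction turned in small, uncalled fold changes of mitochondrial genes and in the log2 ratio of mitochondrial to nuclear counts, whose difference ran from -0.29 to 0.10 in IP and -0.39 to 0.0052 in IV against PBS over single libraries left out. Over single libraries left out, the fold change in IV against PBS ran from -0.23 to 0.0465 for mt-Cytb, -0.26 to 0.0395 for mt-Nd1, -0.27 to 0.00089 for mt-Nd2 and -0.0714 to 0.34 for mt-Nd6, and that of mt-Nd5 in IP against IV from -0.20 to 0.22. Without IP 4 and IV 1 together the value for mt-Nd6, IV against PBS, was -0.0692. Replicate numbers are shared between groups, but same-numbered libraries did not deviate together (r from -0.45 to 0.12 over 6 pairs, 2 of them over 0.1). With the replicate number as a block, 3 genes were lower in IP against PBS, 0 in IV against PBS and 1 in IP against IV. All genes called lower were then 10.6, 3.33 and 2.97%, in that order. The value for mt-Nd5, IP against IV, was 0.0057 with that block. The length split was added after seeing the data. IV 2 was the shallowest library, with 7379798 counts, 13 of them for Cox8b.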
